A study of Mus musculus with 26 samples.

Results

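The response described here is the change in messenger RNA that a cyclic AMP (cAMP) analog produced in wild-type (WT) S49 cells beyond the change in Kin- cells, averaged over 3 times of exposure. For each gene the mean of the WT groups at 2, 6 and 24 h minus untreated WT was taken, and the same difference in Kin- cells was subtracted from it. It rests on 26 of the 26 arrays of the series, 13 of each line. S49 cells are a cultured mouse T lymphoma, and Kin- is a variant selected from them that is known to have no active protein kinase A (PKA). All cells other than the untreated ones had received 100 µM 8-CPT-cAMP, a membrane-permeant analog of cAMP. WT at 0 h and Kin- at 0 h have 4 arrays each, and each line at 2, 6 and 24 h has 3. The labels give no solvent control and no untreated arrays at the later times, and both lines are single cultured lines. They name no separate cultures behind the arrays of a group, so every p-value here reflects array-to-array spread, part or all of which may be technical.

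Cyclic AMP binds the regulatory subunits of PKA and frees the catalytic subunits, which phosphorylate many proteins and, in the nucleus, the transcription factor CREB. Phosphorylated CREB acts at the cAMP response element, a short palindromic sequence, or at its half-site. In S49 cells, cAMP acting through PKA is known for stopping the cycle in G1 and then killing the cells. Kin- cells lack the kinase activity, and the change in WT beyond that in Kin- cells is called PKA-dependent here. Any other difference between these 2 lines enters the subtraction too and cannot be told apart.

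Levels are square roots of the deposited values. Their scale is not stated, and the square root was used because it spans the range of log2 intensities (0.612 to 16.4), so differences are given in log2-like units and 1 unit need not be an exact doubling. Adjusted p-values come from limma with Benjamini-Hochberg adjustment over 22626 probe sets, and an adjusted p under 0.05 counts as past the threshold. Counts below are of 12393 named genes, each represented by its brightest probe set. The median SE was 0.132 units for the averaged response and 0.168 for the response at a single time, limited by the number of arrays. Within groups, the 10 arrays numbered 1 to 14 stood apart from the 16 numbered 16 to 47, and every group held both. Each treated group has a single array numbered 1 to 14. Of the T-lineage markers, Cd3g, Cd3d and Thy1 averaged 12.24, 12.54 and 12.42 units over all arrays, while Cd5 averaged 3.23. The mean of the measured markers was 8.67 to 9.96 in WT and at least 9.86 in Kin- arrays, against 3.43 to 3.83 for 7 B-cell markers and 2.35 to 3.10 for 2 natural killer cell markers over both lines. It was 3.96 to 4.43 for 9 myeloid, 3.78 to 4.00 for 4 erythroid and 4.06 to 4.92 for 7 stromal markers. Thy1 fell by 1.05 in the averaged response (adjusted p 0.00105). No B-cell, myeloid, erythroid or natural killer marker passed on average, but the myeloid marker Itgam passed at 24 h (2.09, adjusted p 0.000243), from a mean of 4.50 in untreated WT to 6.61 in WT at 24 h; its part in the results was not tested. Pdgfrb, on the stromal list, did, at 2.51 (adjusted p 0.0126). Its mean levels were 3.38 in untreated WT, 4.09, 6.35 and 4.46 at the later times and 6.5 in untreated Kin- cells. Col1a1 and Dcn of that list averaged 4.04 and 2.35 and did not pass. Acta2, at 7.69 the brightest of that list, did not pass on average either (0.19, adjusted p 0.694). Its mean level was 7.65 in untreated WT and 9.03 in WT at 24 h, against 7.36 and 7.50 in Kin- cells.

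The averaged response passed the threshold in 1032 genes that were higher (8.33% of those tested) and 1223 that were lower (9.87%). It was at least 1 unit in size in 354 and 250 of them. RNA was measured in bulk, so fewer cells expressing a gene and less RNA per cell cannot be told apart. Passing on average does not make a response lasting: of these 2255 genes, 59 passed at none of the 3 times taken singly, 906 at 1 of them, 875 at 2 and 415 at all 3. Those 415, which also kept 1 direction at all times, are called held here. They comprised 231 genes held higher (1.86% of those tested) and 184 held lower (1.48%). Thus 22.4% of the higher and 15% of the lower averaged calls were held. At single times 956 genes (7.71%) passed at 2 h, 1542 (12.4%) at 6 h and 2948 (23.8%) at 24 h.

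The largest held rises include genes whose promoters hold the half-site of the cAMP response element, TGACG or its complement CGTCA. The windows below are 100 bases 5′ to 3′ on the coding strand from RefSeq, build GRCm38.p6, and show where the half-site (in capitals) lies in the first 5 such genes by size of response. They come from the 250 bases before the annotated start of each gene.

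Sgip1: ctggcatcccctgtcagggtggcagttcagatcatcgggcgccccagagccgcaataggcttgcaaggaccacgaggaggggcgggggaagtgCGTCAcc
Tceal1: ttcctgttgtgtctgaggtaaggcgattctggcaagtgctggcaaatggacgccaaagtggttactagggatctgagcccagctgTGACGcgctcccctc
Rgs2: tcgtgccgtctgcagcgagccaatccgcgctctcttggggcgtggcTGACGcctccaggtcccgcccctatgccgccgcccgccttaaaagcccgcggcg
Olig3: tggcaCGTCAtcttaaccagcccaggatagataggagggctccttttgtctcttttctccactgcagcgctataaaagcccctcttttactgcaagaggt
Ctla2a: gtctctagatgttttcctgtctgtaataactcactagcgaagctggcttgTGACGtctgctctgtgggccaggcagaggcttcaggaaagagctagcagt

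The Sgip1 window is chr4:102760035-102760134 on the plus strand and the Tceal1 window is chrX:136707882-136707981 on the plus strand. The Rgs2 window is chr1:144004163-144004262 on the minus strand, the Olig3 window chr10:19356289-19356388 on the plus strand, and the Ctla2a window chr13:60936626-60936725 on the minus strand. The match ends 2 bases before the start in Sgip1, 10 in Tceal1, 62 in Rgs2, 240 in Olig3 and 45 in Ctla2a. Half-sites were searched on both strands, and the full element TGACGTCA contains a half-site on each. Of the 12 largest held rises, 7 had a half-site in the 250 bases before a start (those printed, Ctla2b and Fos), and none had the full element. Of the 12 largest held falls, Trim2 had a half-site. Crem, Il10, Ifi204, Ighm and Myc were among these 24 genes but were not searched.

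Over all held genes, 33.7% of 264 promoter windows of genes held higher contained a half-site and 3.79% the full element, for 187 of the 231 genes. The shares were 24.2% and 1.61% of 186 windows for 147 of the 184 genes held lower. Among 12566 windows of 9887 genes on the array they were 23.2% and 2.12%, and among all 32851 RefSeq windows 17.8% and 1.55%. Genes higher at 2 h alone, defined below, had the half-site in 44.8% and the full element in 11.9% of 67 windows, and genes lower at 24 h alone had them in 34.2% and 3.2% of 562. A gene can have several windows that overlap, a match of these letters is not a binding site, and none of these shares was tested.

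The 12 largest held rises ran from 4.42 to 7.42 units. Sgip1, which encodes an endocytic adaptor protein, had the largest. Its level was 3.52, 3.52, 3.81 and 4.65 in the untreated WT arrays, 10.29, 11.20 and 10.71 at 2 h, 10.53, 11.79 and 10.92 at 6 h, and 12.07, 12.64 and 12.52 at 24 h. In Kin- cells it was 3.48, 3.47, 3.55 and 3.54 at 0 h, 3.51, 3.56 and 3.44 at 2 h, 3.47, 3.48 and 3.61 at 6 h, and 3.49, 4.59 and 3.44 at 24 h. The lowest of the 9 treated WT arrays, at 10.29, was far above the highest of the 17 others, at 4.65. The averaged response was 7.42 ± 0.34 (SE; adjusted p 9.06e-12), and the responses at 2, 6 and 24 h were 6.87, 7.20 and 8.21.

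Crem, the CREM gene, whose inducible short product ICER represses transcription from cAMP response elements, had the second largest held rise. Its level was 4.20, 4.09, 4.20 and 4.08 in untreated WT cells, 10.97, 10.16 and 9.49 at 2 h, 9.44, 10.77 and 8.88 at 6 h, and 9.70, 10.27 and 9.58 at 24 h. Kin- cells read 3.82, 4.12, 4.11 and 4.59 at 0 h, 4.11, 4.24 and 4.26 at 2 h, 3.57, 4.68 and 4.58 at 6 h, and 4.02, 3.75 and 4.29 at 24 h. The treated WT arrays did not overlap any other arrays, and the 3 WT times overlapped each other. The averaged response was 5.77 ± 0.40 (adjusted p 3.90e-09), and a difference between times was not shown (responses 6.02, 5.44 and 5.85; F test, adjusted p 0.76). ICER and other transcripts of the gene were not told apart here.

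Other large held rises were of genes for receptor and G-protein signalling. Ramp3 encodes a protein that escorts and modifies the calcitonin receptor-like receptor, which couples to cAMP production. It rose by 5.73 ± 0.28 units (adjusted p 1.54e-11), and its response was smaller at 2 h (4.25) than at 6 h (6.54) and 24 h (6.40), with an adjusted p of 0.000187 for the difference between times. Rgs2, an accelerator of GTP hydrolysis on G-protein alpha subunits, rose by 5.02 ± 0.54 (adjusted p 1.32e-06). The level of Rgs2 was 6.53, 4.35, 5.51 and 5.04 in untreated WT cells and between 9.44 and 10.92 in all treated WT arrays, while the 13 Kin- arrays lay between 3.13 and 5.15.

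The same 12 included Tceal1 (5.17), a transcription elongation factor-like gene, and Olig3 (4.94), a transcription factor of neural development. Maged1 (4.77) encodes an adaptor of the melanoma-antigen family and Acer2 (4.73) a ceramidase of the Golgi. Wif1, a secreted inhibitor of Wnt ligands, rose by 5.13 ± 0.39 from untreated levels that already differed between lines, by −2.13 units in Kin- against WT (adjusted p 0.00045). Ctla2a and Ctla2b, inhibitors of cysteine proteases first found in activated T cells, rose by 4.71 and 4.51 and grew with time: the Ctla2b response was 2.36 at 2 h, 4.49 at 6 h and 6.68 at 24 h. They are near-identical neighbours, and their probe sets may not separate them.

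Fos, the AP-1 subunit and a standard early target of CREB, was the twelfth, with an averaged response of 4.42 ± 0.44 (adjusted p 4.58e-07). The level of Fos was 3.46, 3.29, 3.13 and 4.49 in untreated WT cells, 9.52, 8.87 and 9.74 at 2 h, 7.29, 8.50 and 7.95 at 6 h, and 6.71, 5.51 and 5.92 at 24 h. The Kin- levels were 3.56, 2.66, 3.00 and 3.96 at 0 h, 2.72, 2.86 and 2.72 at 2 h, 2.61, 4.11 and 3.32 at 6 h, and 3.15, 2.78 and 3.23 at 24 h. Every treated WT array was above all others, but the arrays of each later WT time lay below those of the time before. Its response fell from 6.31 at 2 h to 2.70 at 24 h (F test, adjusted p 0.000486), so held does not mean constant.

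**Figure D1:**
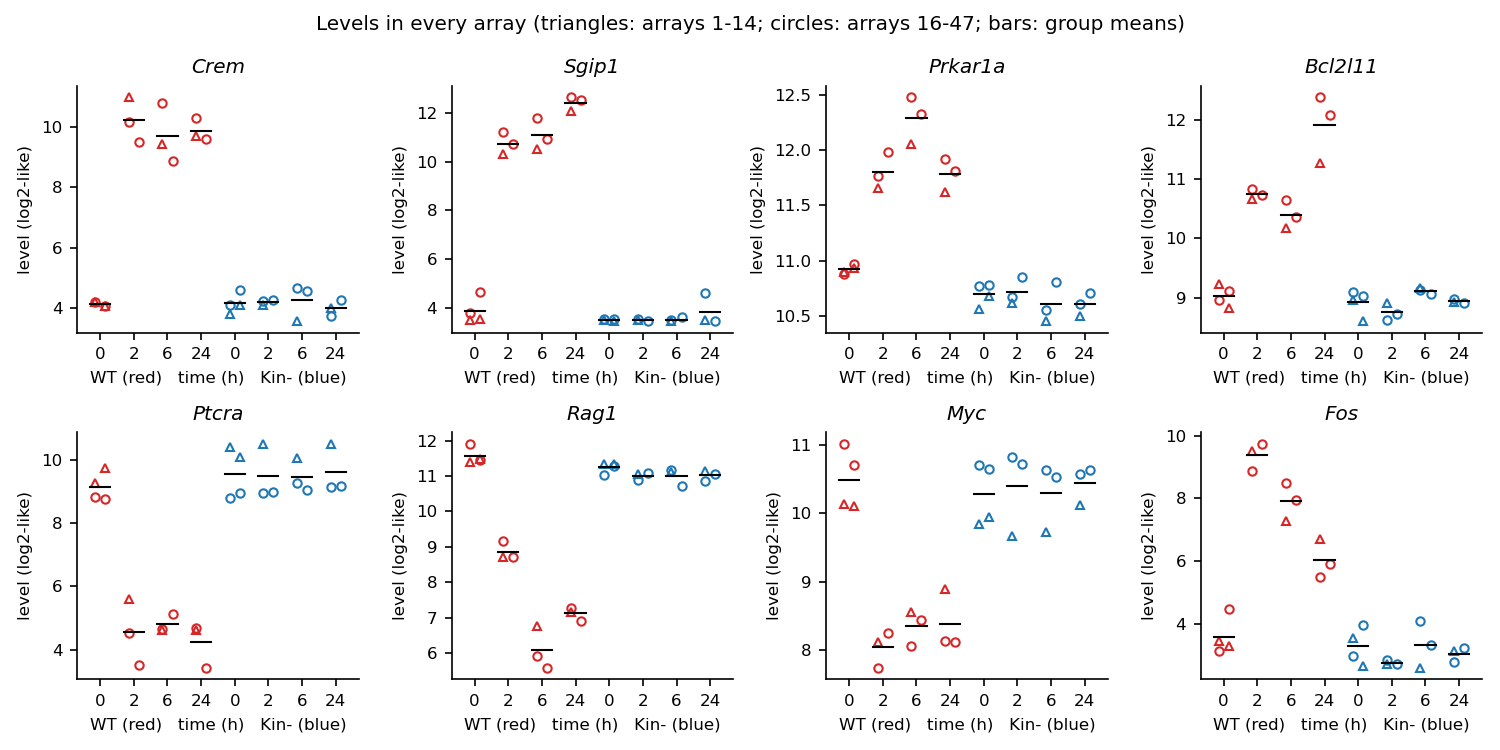
Level of 8 genes in each of the 26 arrays (vertical axis, square root of the deposited value, log2-like units, with its own range in each panel) by line and time in h; red points are WT, blue points Kin-, triangles arrays 1 to 14, circles arrays 16 to 47, and bars group means. Sgip1 in treated WT arrays lies between 10.29 and 12.64 and in all others at or below 4.65, and for Ptcra and Rag1 the treated WT arrays lie below all others.

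The 12 largest held falls ran from −4.57 to −2.01. The largest was of Ptcra, which encodes the invariant alpha chain of the pre-T-cell receptor. The level of Ptcra was 9.26, 9.74, 8.83 and 8.75 in untreated WT cells, 5.58, 4.54 and 3.51 at 2 h, 4.62, 4.66 and 5.14 at 6 h, and 4.61, 4.68 and 3.42 at 24 h. In Kin- cells it was 10.39, 10.07, 8.80 and 8.94 at 0 h, 10.50, 8.96 and 8.97 at 2 h, 10.06, 9.26 and 9.05 at 6 h, and 10.49, 9.12 and 9.18 at 24 h. All treated WT arrays were below the rest, and among Kin- arrays those numbered 5 to 8 and 14 were the highest. The averaged response was −4.57 ± 0.58 (adjusted p 9.77e-06), and it was −4.68 within arrays 1 to 14 and −4.68 within arrays 16 to 47.

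Rag1, a subunit of the recombinase that assembles antigen-receptor genes, fell by 3.96 units on average (adjusted p 1.47e-10). Its level was 11.39, 11.48, 11.91 and 11.45 in untreated WT cells, 8.71, 9.16 and 8.72 at 2 h, 6.76, 5.91 and 5.58 at 6 h, and 7.17, 7.27 and 6.92 at 24 h. The 13 Kin- arrays lay between 10.73 and 11.35. The 3 treated WT groups did not overlap each other or the untreated group, with the lowest levels at 6 h, and the response differed between times (adjusted p 5.39e-06). Rag2, the partner subunit, fell by 1.64 (adjusted p 0.000506) with responses of −1.63, −1.89 and −1.40.

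Myc, the transcription factor that drives growth and ribosome production, was also held lower. The level of Myc was 10.14, 10.11, 11.02 and 10.71 in untreated WT cells, 8.12, 7.74 and 8.25 at 2 h, 8.56, 8.06 and 8.44 at 6 h, and 8.89, 8.13 and 8.11 at 24 h. Kin- cells read 9.85, 9.95, 10.71 and 10.65 at 0 h, 9.66, 10.82 and 10.72 at 2 h, 9.72, 10.63 and 10.53 at 6 h, and 10.12, 10.58 and 10.64 at 24 h. Treated WT arrays lay below all others, and arrays 1 to 14 were low among the untreated and Kin- ones. The averaged response was −2.33 ± 0.35 (adjusted p 7.21e-05), being −1.53 within arrays 1 to 14 and −2.72 within arrays 16 to 47. A difference between times was not shown (−2.57, −2.15 and −2.27; adjusted p 0.818).

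Among the other large held falls were Il10 (−3.79), an anti-inflammatory cytokine, Chdh (−3.38), the mitochondrial choline dehydrogenase that makes betaine, and Ccnb1ip1 (−3.31), a ubiquitin ligase of meiotic crossing over. Trim2 (−2.75) encodes a ubiquitin ligase, H2-T3 (−2.42) the non-classical MHC thymus-leukaemia antigen, and Nrp1 (−2.01) a co-receptor for semaphorins and VEGF. Ifi204 (−2.95) and Ifi202b (−2.08) are related interferon-inducible genes whose probe sets may share signal. The Ighm fall (−2.48 ± 0.53, adjusted p 0.00222) was the exception to the separation of arrays. The level of Ighm, the immunoglobulin mu constant region, was 10.07, 9.95, 7.51 and 8.38 in untreated WT cells and 5.37 to 7.50 in treated ones, overlapping the Kin- range of 7.12 to 7.67. Untreated Kin- cells were already lower by 1.65 (adjusted p 0.046), and in arrays 16 to 47 alone the averaged response was −1.57 (adjusted p 0.0603).

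**Figure D2:**
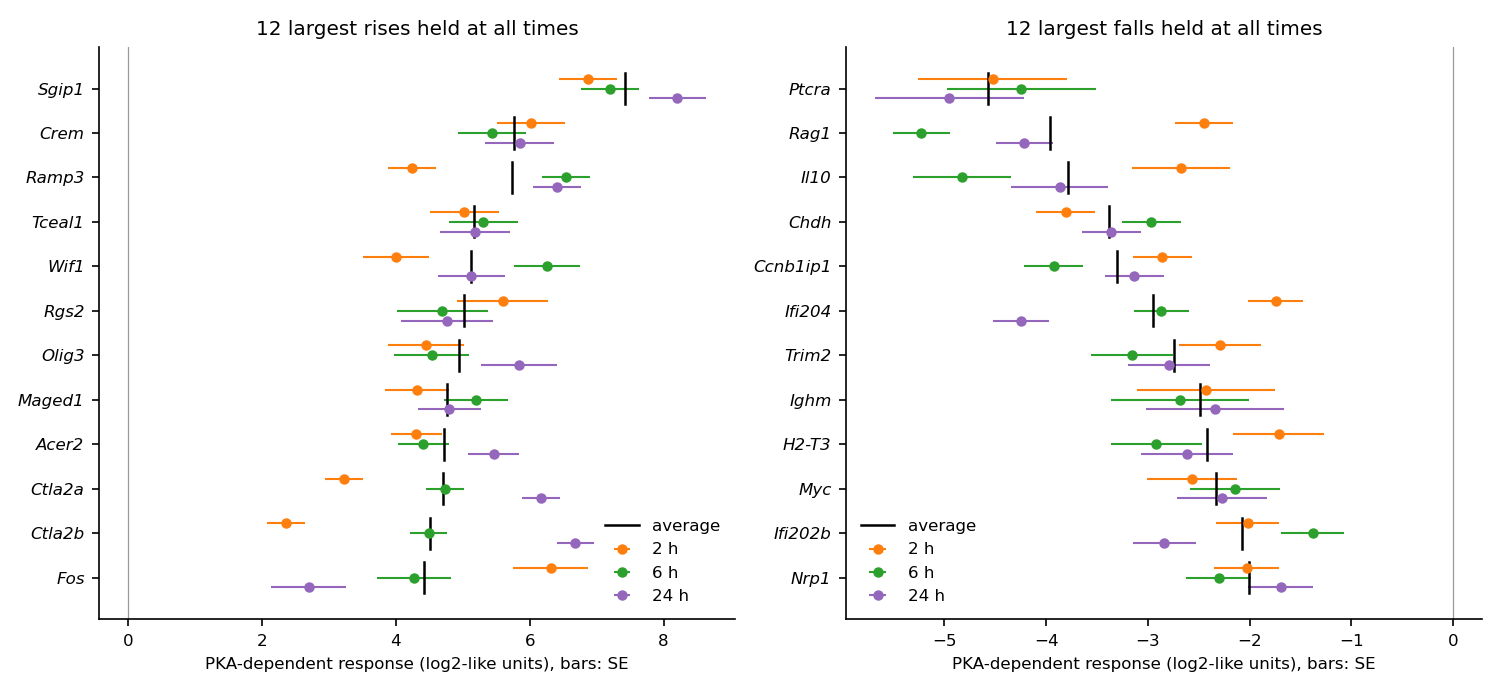
PKA-dependent response at 2, 6 and 24 h (points, with SE bars) and averaged (black marks), in log2-like units on the horizontal axis, for the 12 largest held rises and the 12 largest held falls. For Crem, Tceal1, Ptcra and Myc no difference between times was shown, Fos shrinks from 6.31 to 2.70, and Ctla2b grows from 2.36 to 6.68.

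For all genes, the 9 treated WT arrays lay above all 17 other arrays in 392 genes (3.16%) and below them in 403 (3.25%). Among the held genes they did so in 219 of the 231 held higher and 164 of the 184 held lower. Since held genes were chosen on the same arrays, this describes how clean the separation was. All 415 held genes also had the same direction in both array sets, which their selection on these same arrays favours, so it is no separate check. Genes held higher had a median response of 1.27 units with arrays 1 to 14 and 1.56 with arrays 16 to 47, and that of genes held lower −0.848 and −1.01.

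The profile over time varied within the held genes. In 289 of the 415 no difference between times was shown, while 126 differed (against 2555 of all 12393 genes, 20.6%). The smallest of the 3 responses was a median of 0.667 of the largest among genes held higher and 0.652 among genes held lower. It reached 0.8 in 42 and 36 genes, and was under 0.5 in 39 and 32. Of genes held higher, 50 had the largest response at 2 h, 51 at 6 h and 130 at 24 h, and of those held lower 42, 65 and 77. The sizes were unequal too: the median averaged response was 1.44 in genes held higher and −0.985 in genes held lower. Ints9 (−0.39) and Cdk5r1 (−0.85) were just inside the rule. Their largest adjusted p-values over the averaged response and the 3 times were 0.04995 and 0.0494. Mapk14 (−0.47, 0.05003) and Dnajb2 (1.18, 0.0502) were just outside it.

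Starting levels differed between the directions. In untreated WT cells, 27 of the 231 genes held higher and 0 of the 184 held lower were below the median level of 5.46, against 5705 of all 12393 genes. A dim gene has little room to fall, so the 0 was largely set by choosing genes that fell. Of the 191 held genes with several probe sets, 159 had all of them on the same side, and 1 had a probe set that passed in the other direction.

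The Kin- part contributed little. Averaged over the 3 times, the change in Kin- cells passed in 0 of 12393 genes (0%) with limma, and 260 (2.1%) had an unadjusted p under 0.05. The SD over genes was 0.0967 units for the Kin- part and 0.509 for the WT part, with a median SE of 0.0928 for both. These SEs are equal by design, because the fit shares 1 spread per probe set among all groups. For Gbp2b the SD at 6 h was 2.88 in WT and 0.046 in Kin- arrays. Wide spread in WT arrays thus enters the Kin- test, and the 0 may miss small changes in Kin- cells. The WT part was at least 1 unit in size in 624 genes. The Kin- part was so in 3, Bex1 (−1.24) and the metallothioneins Mt1 (−1.11) and Mt2 (−1.07), whose adjusted p-values were 1. For 601 of the 604 averaged calls of at least 1 unit the Kin- part was under 0.5 in size. In 0 of the 415 held genes was it larger than the WT part.

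It was larger in 8 of the 2255 averaged calls. Those with the largest averaged response were Slurp1 (0.52, from a WT part of 0.14 and a Kin- part of −0.38), Mbnl1 (0.35), Tbcd (−0.28) and Cby1 (−0.27). None of these 4 calls was stable: Slurp1 was lost on leaving out any of 20 of the 26 arrays, Mbnl1 with any of 18, and Tbcd and Cby1 with any of 4 each, the adjusted p then being 0.0505 to 0.137. Untreated Kin- and WT cells differed in 431 genes (3.48%), among them 205 of the 2255 averaged calls. These include Irf8 (−2.69, adjusted p 0.00016), Cd2 (2.00, 9.9e-05), Mxd4 (−1.16, 8.8e-05) and Dusp10 (−0.93, 0.00083), whose responses thus started from unequal levels.

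**Figure D3:**
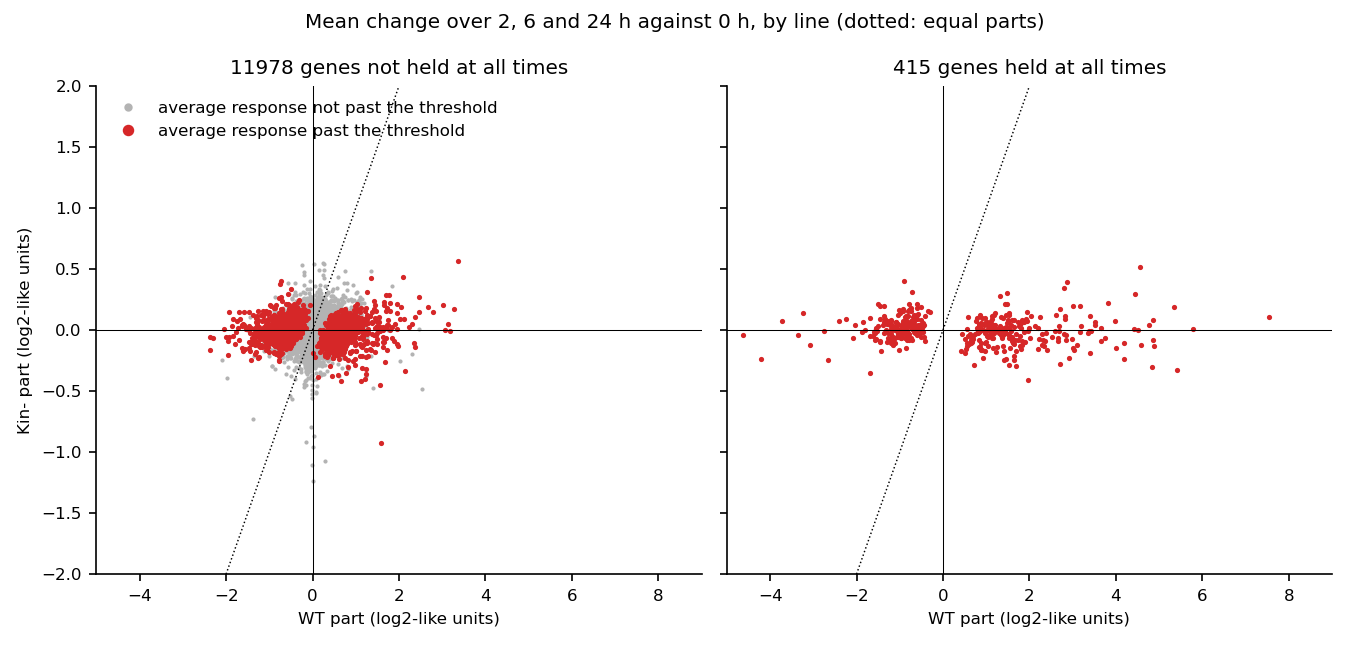
Mean change over 2, 6 and 24 h against 0 h in WT cells (horizontal axis) and in Kin- cells (vertical axis, a narrower range), both in log2-like units, for genes that were not held (left) and the 415 held genes (right); each point is 1 gene, red where the averaged response passed, and the dotted line marks equal parts. Held genes spread along the WT axis to 7.53 (Sgip1), while their Kin- parts stay near 0.

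Of 13 measured PKA subunits and inhibitors 1 was higher and 1 lower, a share near the 18.2% of all genes that passed in either direction. For this and every list below, 8.33% of all genes were higher on average and 9.87% lower. Prkar1a, the main regulatory subunit, which restrains the catalytic subunits, was held higher. Its level was 10.90, 10.93, 10.88 and 10.97 in untreated WT cells, 11.66, 11.77 and 11.98 at 2 h, 12.06, 12.48 and 12.33 at 6 h, and 11.62, 11.92 and 11.81 at 24 h. The Kin- levels were 10.56, 10.68, 10.77 and 10.78 at 0 h, 10.62, 10.67 and 10.85 at 2 h, 10.45, 10.55 and 10.81 at 6 h, and 10.50, 10.61 and 10.71 at 24 h. The treated WT arrays were all above the others, highest at 6 h, and the averaged response was 1.09 ± 0.12 (adjusted p 1.12e-06).

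Akap1, a mitochondrial anchor of PKA, fell by 0.79 (adjusted p 0.00095), although only by 0.52 within arrays 1 to 14. The catalytic subunit genes Prkaca (0.03) and Prkacb (0.05) and the inhibitor Pkia (0.12) did not pass, with adjusted p-values of 0.982, 0.981 and 0.424. In untreated Kin- against WT cells, Prkaca differed by −0.21 (adjusted p 0.39) and Prkacb by −0.03 (adjusted p 1), so these levels do not show the loss of activity known for Kin-. Of 9 phosphodiesterases, the enzymes that break down cAMP, Pde4b was held higher (1.44 ± 0.22, adjusted p 7.82e-05, 0.78 within arrays 1 to 14) and Pde10a was higher (1.39). Of 11 CREB-family factors Crem was higher and Atf5 lower (−1.17). Of 25 genes of RGS proteins and the Gs pathway 4 were higher and 1 lower. Grk5 (0.82) and Rgs3 (−0.49) among them lost the call on leaving out any of 4 and 9 arrays, with adjusted p-values up to 0.101 and 0.113.

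Immediate-early genes, whose transcription signals switch on without new protein, were higher in 14 and lower in 1 of 30, with a median of 0.63 against 0.0131 for all genes. Held were 4 of them. Dusp1 (3.45 ± 0.50, adjusted p 5.00e-05) and Dusp10 (2.98 ± 0.18, adjusted p 4.37e-10), phosphatases of MAP kinases, stayed high: the Dusp10 response was 3.34, 2.56 and 3.05. Nfil3, a repressor related to the clock, rose by 3.09 (adjusted p 0.0033), but missed the threshold at 24 h (2.45, adjusted p 0.054). Of 19 clock genes 5 were higher (8.33% of all genes), Rora (1.96) staying high at all times. Per1 fell back from 2.05 at 2 h to 0.52 at 24 h (F test, adjusted p 0.000284).

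Genes of immature T cells were more often lower than higher. Of 14 genes for the pre-T-cell receptor, recombination and Notch, 6 were lower and 2 higher (9.87% and 8.33% of all genes), with a median of −0.298. Id2, which opposes E proteins, was held higher at 2.41 (adjusted p 3.57e-05). Of 22 T-cell-receptor and T-lineage genes 6 were higher and 4 lower (8.33% and 9.87% of all genes). Bcl11b, a T-lineage transcription factor, was held lower (−1.57 ± 0.16, adjusted p 7.31e-07), as was the adhesion receptor Cd2 (−1.79). Gata3 (1.14) was higher, as was the costimulatory receptor Cd28 (1.55, and 0.85 within arrays 1 to 14).

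Of 22 genes of T-cell activation and costimulation, 7 were higher and 2 lower (8.33% and 9.87% of all genes). Held were 6 of the 7, where 22.4% of all genes higher on average were. The inhibitory receptor Ctla4 rose by 3.91 ± 0.39 (adjusted p 6.10e-07), with untreated Kin- cells 1.5 below WT (adjusted p 0.011). Tnfrsf18, the receptor GITR, rose by 4.15 ± 0.31 (adjusted p 8.77e-09), with responses of 3.28, 4.08 and 5.09. Its level was 5.93 to 6.48 in untreated WT arrays, 9.57 to 10.08 at 2 h and 10.31 to 12.21 later, and 5.37 to 6.12 in Kin- arrays. The median of this list was 0.237 and changed sign to −0.0489 within arrays 1 to 14, where each treated group has a single array.

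Of 25 listed interferon-inducible genes 13 were higher and 1, Ifi204, was lower, with a median of 0.851. Held were 5 of the 13, where 22.4% of all genes higher on average were. Ifi202b, held lower at −2.08, is not on this list. Irf8, a transcription factor of the interferon family, was held higher by 3.43 ± 0.45 (adjusted p 1.62e-05). Irf8 was at 7.32, 7.33, 7.94 and 7.91 in untreated WT arrays and at 9.71 to 11.75 in treated ones, against 4.18 to 5.71 in Kin- arrays. The immunity-related GTPases Irgm2 (3.49, adjusted p 0.00136) and Igtp (3.28, adjusted p 0.000743) were held too, at 1.58 and 2.03 within arrays 1 to 14 and 4.74 and 3.94 within arrays 16 to 47. The median of the list was 0.343 with arrays 1 to 14 alone and 0.943 with the others.

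Among genes that regulate cell death, members of both roles passed in both directions, where 8.33% of all genes were higher and 9.87% lower. Bcl2l11, the pro-apoptotic protein Bim, was held higher. Its level was 9.23, 8.82, 8.96 and 9.12 in untreated WT cells, 10.67, 10.83 and 10.73 at 2 h, 10.17, 10.65 and 10.37 at 6 h, and 11.27, 12.38 and 12.08 at 24 h. In Kin- cells it was 8.97, 8.60, 9.09 and 9.03 at 0 h, 8.91, 8.62 and 8.73 at 2 h, 9.16, 9.13 and 9.06 at 6 h, and 8.92, 8.98 and 8.92 at 24 h. Treated WT arrays exceeded all others, with a dip at 6 h, and the averaged response was 1.97 ± 0.20 (adjusted p 6.35e-07; F test over times, adjusted p 0.000385).

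Bid, another pro-apoptotic member, was held lower at −1.11 (adjusted p 2.74e-06), and the other 9 of 11 did not pass. The share of that list that passed was near the 18.2% of all genes that passed in either direction. Of 10 anti-apoptotic genes 3 were higher and 1 lower: Birc3 (0.89), Cflar (0.78), Xiap (0.71, and 0.43 within arrays 1 to 14) and Birc5 (−0.80). Of 19 inhibitors of cyclin-dependent kinases and quiescence factors 9 were higher and 0 lower, with a median of 0.998. Held among them were Ccng2 (2.65), Foxo1 (2.40 ± 0.24, adjusted p 6.77e-07) and Tob2 (1.75). Cdkn1b, the inhibitor p27, rose by 1.57 ± 0.40 (adjusted p 0.00887), at 1.59, 1.57 and 1.55, but passed only at 24 h, with adjusted p-values of 0.069, 0.053 and 0.032. A term for the array set cannot alter these responses, as both lines have the same split of arrays. With it the averaged SE was 0.163 (adjusted p 6.07e-07). The level of Cdkn1b was 8.24 to 9.43 in untreated WT arrays and 9.60 to 10.77 in treated ones, overlapping the Kin- range of 8.81 to 10.25.

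Growth and biosynthesis genes were mostly lower on average, but few passed as lower at 2 h. Of 50 ribosome biogenesis genes 41 were lower and 0 higher, with medians of −0.379 at 2 h, −1.17 at 6 h and −1.20 at 24 h, and 8 were held. Ppan (−1.58) and Wdr43 (−1.53), factors of ribosome assembly, were among those. Gnl3 (nucleostemin, −1.60, and −0.97 within arrays 1 to 14) and Polr1b, a subunit of RNA polymerase I (−1.44), did not pass at 2 h. Their 2 h responses were −1.16 and −0.85 (adjusted p 0.158 and 0.419). Of 21 genes of one-carbon, serine and nucleotide synthesis 18 were lower and 0 higher, with medians of −0.189, −0.878 and −1.95 over the times, and Chdh alone was held. Shmt1 (−2.32), Shmt2 (−1.66) and Ctps (−1.51) followed, the first pair at −1.48 and −1.10 within arrays 1 to 14.

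Of 32 amino acid transporters and tRNA synthetases 21 were lower and 1 higher. Slc1a5, the glutamine transporter, was held lower (−1.56 ± 0.17, adjusted p 1.03e-06). Of 26 cytosolic and mitochondrial chaperones 17 were lower and 2 higher, and Bag2 (−1.32) alone was held. Of 27 chaperones and sensors of the endoplasmic reticulum 6 were higher and 0 lower on average (8.33% and 9.87% of all genes). At 6 h 9 were higher and 0 lower (5.91% and 6.54% of all genes). At 24 h 3 were higher and 5 lower (11.7% and 12% of all genes). The response differed between times in 15 of the 27, against 20.6% of all genes. Eif2ak3, the sensor kinase PERK, was held higher at 2.34 (adjusted p 1.05e-08), as was Edem1 (1.16), while Ero1a (1.40, adjusted p 0.0196) lost the call on leaving out any of 4 untreated arrays (13, 16, 40 or 44; 1.10 to 1.29).

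DNA replication and mitosis show what the average hides. Of 47 replication genes 30 were lower on average and 0 held. Their median response was −0.0224 at 2 h, −0.28 at 6 h and −1.68 at 24 h, and 43 of the 47 differed between times. Of 51 mitosis genes 12 were lower and 1 higher on average, with medians of 0.105, 0.294 and −1.56, and 49 differed between times. Examples are Tk1, thymidine kinase (−0.70, −1.02 and −2.55), and Aurkb, a kinase of chromosome segregation (−0.60, −0.39 and −2.54). Of 19 G1 cyclins, cyclin-dependent kinases and E2F factors 9 were lower and 1 higher. Ccne1 (cyclin E1, −1.43) was held, and Ccnd3 (cyclin D3, −0.75) was low at 24 h (−1.53).

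Of 53 oxidative phosphorylation genes 2 were higher and 6 lower, where 18.2% of all genes passed, and with a term for the array set 3 and 15 did. Sdhd (−0.58) and Cycs (−0.41) lost the call on leaving out any of 3 and 17 arrays. Of 19 glycolysis genes Slc2a3, a glucose transporter, was held higher (3.13, adjusted p 0.000494), and Eno3 was lower (−1.10). Of 19 genes of cholesterol synthesis and uptake Srebf2 was higher (0.80) and Scap lower (−0.33, a call lost without array 14). Of 34 lysosomal genes 8 were higher and 2 lower, with Lamp2 held (1.38), Npc2 (0.84) and Atp6v0d1 (0.73, and 0.46 within arrays 1 to 14) higher, and Gla (0.91) losing the call without array 14, 16, 36 or 40. Of 10 genes of the Myc network Mxd4 (1.53), an antagonist of Myc, and Mlxip (0.50) were higher, the latter losing the call without array 1, 13 or 44.

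**Figure D4:**
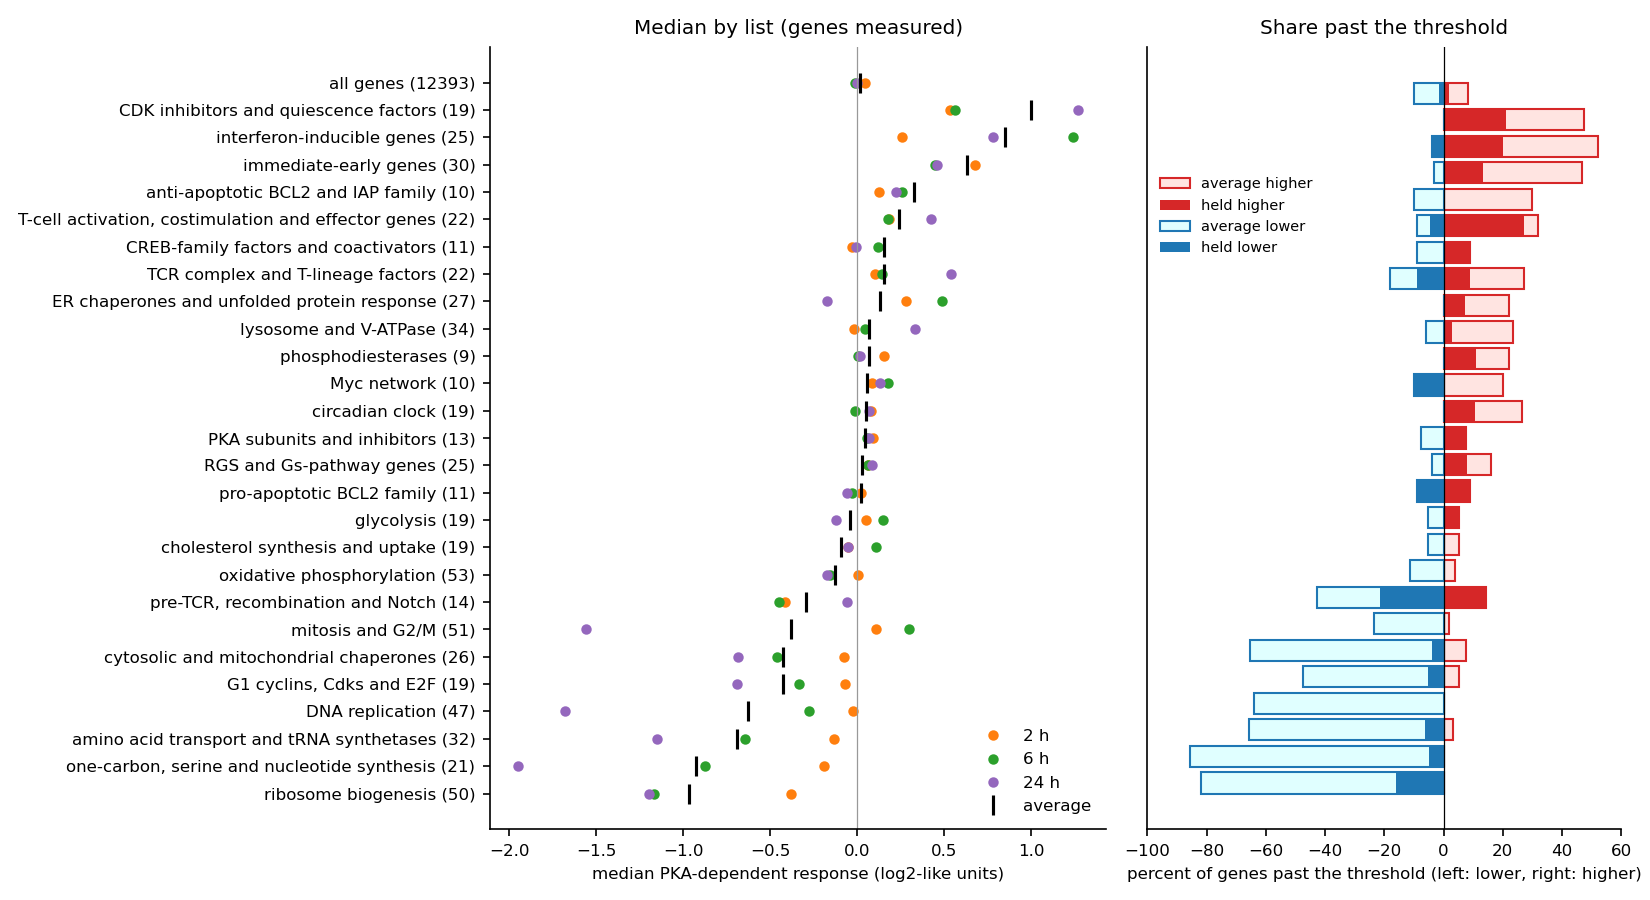
Left, median PKA-dependent response of each gene list at 2, 6 and 24 h (points) and averaged (black marks), in log2-like units; right, the percent of each list past the threshold on average (open bars) and held (filled bars), lower to the left and higher to the right. Replication and mitosis genes have medians near 0 at 2 h and of −1.68 and −1.56 at 24 h and no held member, and ribosome biogenesis is already at −1.17 at 6 h.

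An averaged call can come from 1 time. Genes that passed at exactly 1 time and also differed between times numbered 184 at 2 h (68 higher, 116 lower), 119 at 6 h (56 and 63) and 1151 at 24 h (575 and 576). The average passed for 56, 31 and 425 of them. The largest of the 3 responses was at 24 h in 64.1% of the 1032 genes higher on average and 61.8% of the 1223 lower.

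Maff, a small MAF transcription factor, was the largest rise of 2 h alone. Its level was 2.74, 2.73, 2.64 and 2.85 in untreated WT cells, 4.79, 6.61 and 6.03 at 2 h, 3.03, 2.89 and 3.13 at 6 h, and 2.46, 2.77 and 2.74 at 24 h, while the Kin- arrays lay between 2.54 and 3.00. Only the 2 h WT arrays stood apart, and the average of 1.01 (adjusted p 0.0121) came from a response of 3.07 at 2 h beside 0.16 and −0.19. Its 2 h response was 2.03 within arrays 1 to 14 and 3.65 within arrays 16 to 47. Jmy, an actin and p53 cofactor (2.16), and Nup98, a nucleoporin (2.08), were next. The largest falls of 2 h alone were Ms4a6b (−2.35), Map2k6, a MAP kinase kinase (−2.06), and Sla, an adaptor that dampens antigen-receptor signalling (−2.04). The Ms4a6b fall had an adjusted p of 0.0324, and its 24 h response, a rise of 1.805, just missed the threshold (adjusted p 0.0574). The averaged call of Sla (−1.13) was lost without array 14 (−1.03) or 16 (−0.93).

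At 6 h alone the largest rises were the interferon-inducible guanylate-binding genes Gbp2 (3.94), Gbp2b (3.47) and Gbp3 (3.00), the first pair of which are close paralogs. The 6 h rise of Gbp2b was seen in arrays 18 and 38 (6.95 and 6.51) and not in array 3 (1.76), giving responses of 5.13 within arrays 16 to 47 and 0.17 within arrays 1 to 14. The level of Gbp2 was 2.90, 3.17, 2.86 and 2.85 in untreated WT cells, 2.86, 3.01 and 3.20 at 2 h, 5.03, 7.76 and 7.94 at 6 h, and 2.87, 5.64 and 5.86 at 24 h. The arrays at 5.03 and 2.87 are those numbered 1 to 14, so the averaged response was 0.52 in that set and 2.77 in the other, and leaving out any of 16 arrays ended the averaged call (adjusted p 0.0504 to 0.0712). That of Gbp3 was 0.69 within arrays 1 to 14 and was lost without array 13 (1.18) or 40 (1.17). The largest falls of 6 h alone were Bmp7, a signalling ligand (−2.53), the chemokine receptor Ccr9 (−2.08) and Rsrc1 (−1.82). Untreated Kin- cells were 4.66 below WT in Ccr9 (adjusted p 1.3e-06). Within arrays 1 to 14 the 6 h response was −0.96 for Ccr9 and −1.38 for Bmp7, against −2.58 and −3.06 within arrays 16 to 47, and the averaged response of Bmp7 was −0.69 in the former.

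At 24 h alone the largest rises were Scg5 (4.79), a chaperone of prohormone convertase, Naip5 (4.61), a sensor of flagellin, and the chemokine receptor Cxcr6 (4.23). Untreated Kin- cells were 2.40 below WT in Naip5 (adjusted p 0.0137), and its averaged response of 1.75 did not pass (adjusted p 0.075). The level of Scg5 was 3.73 to 4.70 in all WT arrays before 24 h and 3.83 to 4.31 in Kin- arrays, and 7.35, 9.69 and 9.42 in WT at 24 h. Its averaged response of 1.79 (adjusted p 0.002) was 1.01 within arrays 1 to 14. For Cxcr6 the average (1.75, adjusted p 0.0362) was 1.00 within arrays 1 to 14 and lost the call on leaving out any of 12 arrays. The largest falls were Hells, a chromatin remodeler of dividing cells (−2.98), Ercc6l, a helicase of mitosis (−2.93), and the kinetochore gene Pmf1 (−2.83). Hells averaged −1.24, and −0.60 within arrays 1 to 14. The 24 h response within arrays 1 to 14 was −1.41 for Pmf1 (array 4 at 6.93, the others at 4.57 and 5.29), −1.73 for Hells, 2.91 for Scg5 and 2.21 for Cxcr6, against −3.66, −3.64, 5.87 and 5.13 within arrays 16 to 47.

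In 77 genes the response passed at 2 times with opposite signs. The widest spans were in Etfbkmt, a methyltransferase of mitochondria (−1.58 at 2 h, 2.08 at 24 h), Bard1, the partner of BRCA1 (1.85 and −1.64), and Rabgap1l, a GTPase-activating protein (−2.12 and 1.07). The level of Bard1 in WT cells was 5.91, 6.52, 5.71 and 6.00 untreated, 7.50, 7.72 and 7.51 at 2 h, 5.67, 5.90 and 5.79 at 6 h, and 3.93, 3.66 and 4.29 at 24 h, the last below all 13 Kin- arrays (5.81 to 6.88). The averaged responses of these 3 genes, 0.27, 0.06 and −0.55, did not pass (adjusted p 0.635, 0.979 and 0.175).

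**Figure D5:**
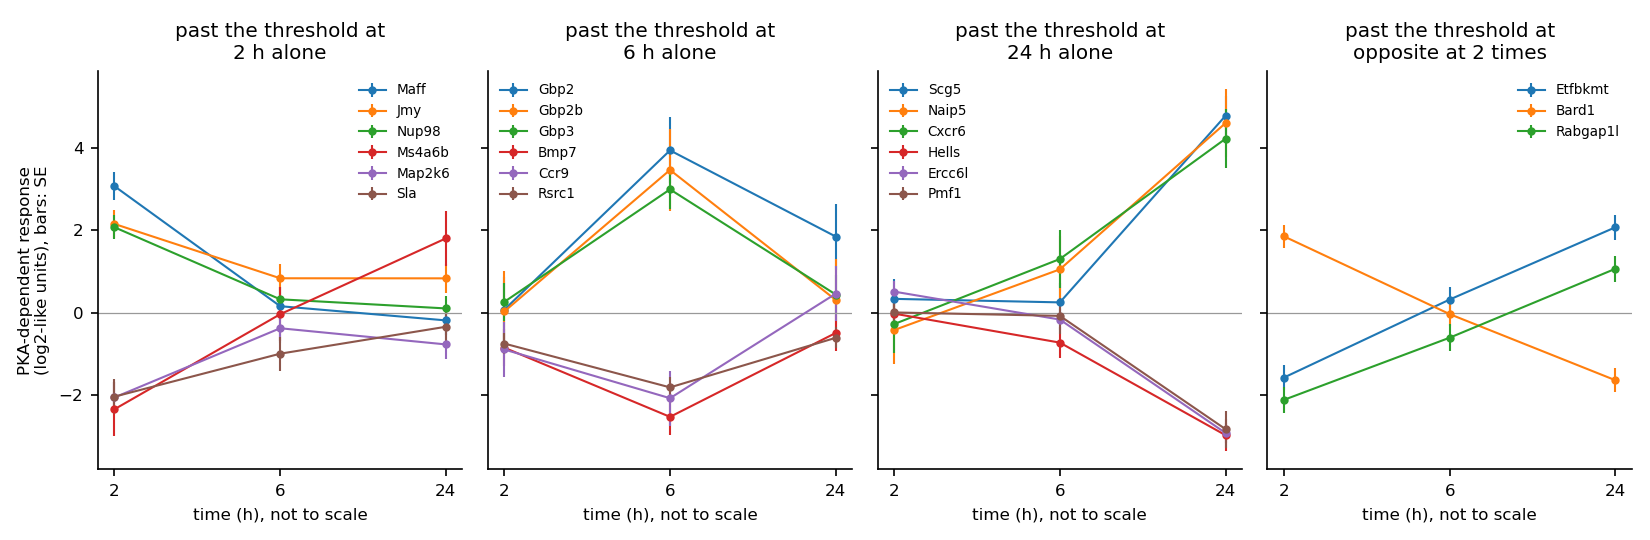
PKA-dependent response (vertical axis, log2-like units, SE bars) at 2, 6 and 24 h (horizontal axis, evenly spaced and not to scale) for the largest rises and falls among genes past the threshold at 2 h, 6 h or 24 h alone, and for genes past it in opposite directions at 2 times. Maff is at 3.07 at 2 h and −0.19 at 24 h, Scg5 at 0.34 and 4.79, and Bard1 crosses from 1.85 to −1.64.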

How the data were processed

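The authors deposited 1 table of processed scores with 1 column per array. For these deposited scores, the software, normalization and scale were not given in the sources used here. Values ran from 0.375 to 267 and column medians of the square roots from 5.40 to 5.53, so no further normalization was applied. Square roots of 22626 probe sets were fitted with limma 3.58.1 (lmFit and eBayes, R 4.3.3) with 1 mean for each of 8 groups and no covariate, leaving 18 residual degrees of freedom. Contrasts gave the response averaged and at each time, its parts in each line, and an F test between times. Of the probe sets, 20380 have 1 gene symbol in the platform annotation, 691 several and 1555 none; those with several or none were not named. 20351 matched a current gene table by gene ID, with 0 symbols changed. The brightest probe set stood for each of 4956 genes that had more than 1.

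Named genes were the 12 largest held rises and falls and the 3 largest each way at 1 time alone. Added were 4 with a larger Kin- part, 3 with opposite signs, and up to 4 called members of each list with fixed genes of interest. Pdgfrb, Itgam, Acta2, Bex1, Mt1 and Mt2 and those at the threshold were named after their values were seen. The response, the lists and these rules were chosen with earlier results of these data known. Gene lists were counted, not tested. Scripts were tested on simulated data. Alternatives covered the scale, normalization, filter, array sets and series, weights, times averaged and arrays left out.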

Additional observations from a re-analysis of the deposited data

Results flagged for a closer look

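In the untreated groups of 4 arrays, 9 of 266 groups of values of named genes had 1 array far from the other 3, and chance flags about 1 in 20. In untreated WT these were Gbp2 at 3.17 in array 13 (others 2.85 to 2.90), Slurp1 at 4.51 in array 36, Pde10a at 6.49 in array 1, Birc3 at 6.10 in array 13 and Ndufs1 at 11.98 in array 16. In untreated Kin- they were Map2k6 at 7.32 in array 14 (others 8.22 to 8.34), Pde10a at 6.61 in array 5, Eif2ak3 at 8.21 in array 5 (others 8.82 to 8.84) and Ahsa1 at 11.17 in array 44. Of these genes, only Gbp2 and Slurp1 lost the averaged call on leaving out the array named.

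The response differed between times in 2555 genes by the F test, and 77 genes passed at 2 times with opposite signs. The widest spans between times were 3.65 units in Etfbkmt, 3.50 in Bard1 and 3.19 in Rabgap1l.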

How the results depend on the processing

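Counts here are of probe sets: 1645 higher and 1982 lower on average, 362 and 267 held, and 4267 that differed between times. Scale, quantile normalization and a filter at the median level kept all 5 counts within 1.5 times, and leaving out each array in turn gave 1403 to 1855, 1718 to 2287, 302 to 403, 200 to 341 and 3699 to 4716. A term for the array set cannot alter the responses, as both lines have the same split of arrays, but it changes their SE. It raised the held counts to 563 and 523, and all 3627 averaged calls passed with it. The series of consecutive array numbers, a pairing that the labels do not state, gave 596 and 517 held and 6611 differing as a fixed block (94.2% of averaged calls shared) and 480 held lower as a random block. Arrays within a series had residuals correlated at a median of 0.372, against 0.25 between series of the same line and set. Array weights gave 2718 higher, 606 and 504 held, and 7971 differing. Arrays 16 to 47 alone gave 403 held lower, and arrays 1 to 14 alone gave 17, 2, 1, 0 and 0 with 1 array in each treated group. Without 24 h the average was lower in 1237. A size of at least 1 left 584 higher and 436 lower.

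Of 121 named genes that passed, 16 lost the call on leaving out 1 array. Signs turned for Maff (−0.0158 without 2 h, adjusted p 0.992), Ercc6l (0.17 without 24 h, adjusted p 0.822) and Dnajc3 (−0.0722 as the mean of its probe sets, adjusted p 0.842). Bard1, not past the threshold on average, was at −0.84 without 2 h (adjusted p 0.0167). No detection flags were used here, so falls of dim genes may be understated. The cause of these changes was not tested.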
